A study of Mus musculus with 32 samples.

Results

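Genes that mark the spiny projection neurons of the indirect pathway were followed across 4 genotypes of mouse striatum, 6 in all: Penk, Drd2, Adora2a, Gpr6, Gpr52 and Sp9. They were listed by symbol as markers of the spiny neurons that carry the D2 dopamine receptor. The deposited tables identify genes by Ensembl number, and 5 of the 6 symbols have an entry in the GENCODE M21 annotation by which those numbers were named. Gpr52 has none and is not analysed here. All 5 measured genes passed the filter on low counts, among 16610 genes tested of 54532 in the table.

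The striatum came from 32 mice aged 6 months, 8 of each genotype. Wild-type mice carried neither allele. zQ175 mice, a model of Huntington's disease, had a lengthened CAG tract knocked into their own Htt gene. Msh3-/- mice were homozygous for a germline deletion in the mismatch repair gene Msh3, made with CRISPR guides to exons 3 and 8 in C57BL/6J eggs, and had no Huntington's disease allele. zQ175:Msh3-/- mice carried both. The genotypes were bred as littermates, and libraries were made from polyadenylated RNA. Males numbered 17 and females 15: the sexes were equal in wild-type, Msh3-/- and zQ175 mice, and 5 of the 8 zQ175:Msh3-/- mice were male. The question for these genes was whether the zQ175 allele lowered them, and whether loss of Msh3, which is needed for the CAG repeat to lengthen in somatic cells, altered that.

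Spiny projection neurons make up most neurons of the striatum and fall into a pair of classes. Those of the indirect pathway project to the external globus pallidus, release GABA and the opioid peptide enkephalin, and act to restrain movement. Those of the direct pathway carry the D1 dopamine receptor and project to the output nuclei of the basal ganglia. In indirect pathway neurons, the adenosine A2A receptor raises cyclic AMP through the G protein Golf and adenylyl cyclase 5, and the D2 receptor opposes it through Gi proteins. Loss of enkephalin and of D2 and A2A receptors is a long-known feature of the striatum in Huntington's disease.

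Penk, which encodes the enkephalin precursor, is shown first because these neurons release the peptide. Penk RNA also differed most among the members in the comparisons of the zQ175 allele that follow. Penk (ENSMUSG00000045573) spans bases 4133531 to 4138819 of chromosome 4, minus strand (GRCm38, GENCODE M21). Its transcript of 1449 bases has 2 exons, and 804 coding bases give 268 codons. The coding sequence held 6 copies of Met-enkephalin and 1 of Leu-enkephalin, all within 1 exon. A pair of codons for lysine or arginine, where the processing enzymes cut, preceded all 7 copies, and such a pair also followed 5 of them. The 7 stretches below, read from the GENCODE transcript, have the 15 bases that code for the peptide in capitals and 6 bases on either side in lower case. The third codon, for glycine, is written in the same 3 letters in all 7 copies, while the letters of other codons varied between copies.
Met-enkephalin, copy 1, chr4:4134328-4134354: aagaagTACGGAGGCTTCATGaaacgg
Met-enkephalin, copy 2, chr4:4134307-4134333: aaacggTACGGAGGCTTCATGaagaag
Met-enkephalin, copy 3, chr4:4134220-4134246: aagaggTATGGCGGCTTCATGaagaag
Met-enkephalin, copy 4, chr4:4134067-4134093: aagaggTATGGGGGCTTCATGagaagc
Met-enkephalin, copy 5, chr4:4133995-4134021: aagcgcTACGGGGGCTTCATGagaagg
Leu-enkephalin, copy 6, chr4:4133935-4133961: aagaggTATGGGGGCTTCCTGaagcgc
Met-enkephalin, copy 7, chr4:4133842-4133868: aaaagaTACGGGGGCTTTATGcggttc

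Of the other genes, Drd2 (ENSMUSG00000032259), the D2 dopamine receptor, lies on the plus strand of chromosome 9, from 49340627 to 49408177, with 8 exons in its transcript of 2547 bases. Adora2a (ENSMUSG00000020178), the A2A adenosine receptor, lies on the plus strand of chromosome 10, from 75316877 to 75334784. Gpr6 (ENSMUSG00000046922), an orphan receptor that raises cyclic AMP without added ligand, spans bases 41069977 to 41072285 of the same chromosome, minus strand. Sp9 (ENSMUSG00000068859), a zinc finger transcription factor needed for these neurons to form, is on the plus strand of chromosome 2, from 73271925 to 73284706. All these positions are on GRCm38. Penk and Sp9 each overlap a gene on the opposite strand, and no strand setting for the counting is given in the sources used here, so reads of the shared stretch cannot be told apart. Penk shares 499 bases with A830012C17Rik, which had a mean of 2.28 counts per 1000000 (CPM) in wild-type mice against 1125 for Penk. A830012C17Rik was also lower with the zQ175 allele. Its log2 fold change was -1.06 in zQ175 against wild-type and -1.31 in zQ175:Msh3-/- against Msh3-/- (edgeR adjusted p = 0.00018 and 1.3e-05). The part of shared reads in these values was not tested. Sp9 shares 1602 bases with Cir1, which had 36.9 CPM in wild-type and 37.0 CPM in zQ175 mice.

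Promoter sequences of 300 bases, from 250 before to 50 after the start site, were in the RefSeq table (GRCm38.p6) for 3 members, Drd2, Gpr6 and Sp9, and not for Penk, Adora2a or Gpr52. They are shown because 2 of these genes were lower together in zQ175 mice and the third was not called. The cyclic AMP response element TGACGTCA, its variant TGCGTCA and the GC box GGGCGG were searched on both strands and are in capitals where found. TGACGTCA is in 1.79% of 32851 RefSeq promoters, TGCGTCA in 2.12% and GGGCGG in 35.7%. Gpr6 had 1 copy of TGACGTCA, starting 78 bases before the start site. Drd2 had 2 GC boxes and Sp9 had 1. The Drd2 window ends at base 49340452, before the GENCODE start of the gene at 49340627. Positions in the windows are therefore relative to the RefSeq start. G and C made up 70.3% of the Drd2 window, 58.7% of the Gpr6 window and 63.7% of the Sp9 window, with a median of 52.7% over all promoters. These matches are descriptions of letters, and whether any factor bound there was not measured.
Drd2, chr9:49340153-49340452, plus strand: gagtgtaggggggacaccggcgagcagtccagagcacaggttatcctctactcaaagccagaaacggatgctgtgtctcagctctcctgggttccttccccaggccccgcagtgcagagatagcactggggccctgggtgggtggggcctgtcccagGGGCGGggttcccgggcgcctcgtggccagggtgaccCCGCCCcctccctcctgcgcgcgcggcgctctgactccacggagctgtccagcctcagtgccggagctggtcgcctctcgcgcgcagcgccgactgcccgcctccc
Gpr6, chr10:41072241-41072540, minus strand: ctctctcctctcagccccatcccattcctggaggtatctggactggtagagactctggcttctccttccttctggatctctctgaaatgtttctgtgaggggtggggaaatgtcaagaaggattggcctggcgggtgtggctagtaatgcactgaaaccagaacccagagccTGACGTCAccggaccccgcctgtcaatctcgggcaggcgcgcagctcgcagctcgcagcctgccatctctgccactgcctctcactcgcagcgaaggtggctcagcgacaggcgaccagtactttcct
Sp9, chr2:73271676-73271975, plus strand: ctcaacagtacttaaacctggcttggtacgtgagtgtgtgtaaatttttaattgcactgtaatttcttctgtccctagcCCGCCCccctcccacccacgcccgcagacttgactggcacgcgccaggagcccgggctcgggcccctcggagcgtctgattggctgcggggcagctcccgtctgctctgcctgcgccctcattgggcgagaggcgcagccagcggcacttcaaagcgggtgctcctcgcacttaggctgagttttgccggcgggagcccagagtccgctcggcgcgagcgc

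The counts summed to between 12359347 and 25030335 reads per mouse, and each member had at least 382 reads in every mouse. Msh3, the targeted gene, had 47.9% of its wild-type level in Msh3-/- mice and 52.8% of its zQ175 level in zQ175:Msh3-/- mice, and the mice with and without the deletion did not overlap. Reads from the parts of the gene outside the deletion are still counted. The tissue carried the defining genes of striatum, with Ppp1r1b, which encodes DARPP-32, at 2369 CPM in wild-type mice. Markers of cortical projection neurons varied between mice: the summed level of 5 of them ranged from 44.9 to 302 CPM in wild-type, 47.0 to 452 in Msh3-/-, 35.5 to 390 in zQ175 and 129 to 655 in zQ175:Msh3-/- mice. None of these 5 was called in either comparison of the zQ175 allele. All were higher with the allele, by log2 fold changes of 0.42 to 0.84, with standard errors of 0.43 to 0.48. These tests therefore could not decide whether the level of these markers differed with the allele. In both comparisons 0 of the 5 had an unadjusted p under 0.05 by edgeR, and DESeq2 called 0. Over all 16610 genes tested, 6063 passed that unadjusted limit in zQ175 against wild-type and 5803 in zQ175:Msh3-/- against Msh3-/-. Results with the cortical level as a term in the model are given below. The summed level of 3 choroid plexus markers varied more between mice. It ranged from 15.1 to 1475 CPM in wild-type and 18.1 to 1680 in Msh3-/- mice. In zQ175 mice it ranged from 29.1 to 1703 CPM, and in zQ175:Msh3-/- mice from 22.9 to 2774. Its part in the results was not tested.

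Per length, the 5 genes kept the same order in all 4 genotypes. On the scale of transcripts per 1000000 (TPM), which allows for length, the mean level in wild-type mice was 1878 for Penk, 463 for Adora2a, 267 for Drd2, 122 for Gpr6 and 19.0 for Sp9. Penk was thus 4.06-fold above Adora2a, and Gpr6 6.43-fold above Sp9. No neighbours in this order overlapped between mice of any genotype. The steps were unequal between genotypes: in zQ175 mice, Penk was 3.37-fold above Adora2a and Gpr6 was 3.99-fold above Sp9.

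The zQ175 allele lowered 4 of the 5 measured genes relative to wild-type mice, and Sp9 was not called. A call required a Benjamini-Hochberg adjusted p under 0.05 over all genes, by the quasi-likelihood test of edgeR, and a fold change of at least 1.2. By that rule 6.89% of all genes tested were called lower and 4.7% higher. The median log2 fold change of the members was -0.80, beside 0.01 over all genes tested. In all 4 called genes every zQ175 mouse was below every wild-type mouse, a pattern found in 4.61% of all genes. These are levels in whole tissue, in which fewer cells of a type and less RNA per cell cannot be told apart.

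Penk was the most changed. In wild-type mice it ranged from 994 to 1248 CPM with a median of 1146, and in zQ175 mice from 388 to 507 CPM with a median of 454. The ranges were far apart, and the mean in zQ175 mice was 40.0% of the wild-type mean. The log2 fold change was -1.32 ± 0.05 (SE, n = 8 mice per group, edgeR adjusted p = 2.0e-19), which placed it 2nd of all genes by p and 52nd by size among those lowered.

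Adora2a, whose receptor drives cyclic AMP in these neurons, ranged from 422 to 508 CPM in wild-type mice, with a median of 451. In zQ175 mice it ranged from 197 to 254 CPM, with a median of 219. The groups did not overlap, and the mean was 48.8% of wild-type. Its log2 fold change was -1.03 ± 0.05 (SE, n = 8, edgeR adjusted p = 2.3e-17), and it was 5th of all genes by p.

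Drd2 and Gpr6 differed by similar amounts. Drd2 ranged from 252 to 332 CPM with a median of 298 in wild-type mice, and from 151 to 207 CPM with a median of 168 in zQ175 mice. The groups did not overlap, and the log2 fold change was -0.79 ± 0.07 (SE, n = 8, edgeR adjusted p = 3.3e-11). Gpr6 ranged from 77.7 to 107 CPM with a median of 98.2 in wild-type mice, and from 45.7 to 64.5 CPM with a median of 54.9 in zQ175 mice. The groups did not overlap here either, and the log2 fold change was -0.80 ± 0.07 (SE, n = 8, edgeR adjusted p = 1.0e-10). The means were 58.0% of wild-type for Drd2 and 57.5% for Gpr6. Cholinergic interneurons also express Drd2. The summed level of 5 of their markers was 106 to 136 CPM in wild-type and 89.0 to 109 CPM in zQ175 mice, and 2 of the 5, Chat and Slc5a7, were called lower, with log2 fold changes of -0.27 and -0.31. Their part in the Drd2 result was not tested.

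Sp9, the transcription factor of the set, ranged from 33.9 to 41.5 CPM with a median of 36.6 in wild-type mice, and from 30.2 to 37.3 CPM with a median of 34.5 in zQ175 mice. The ranges overlapped in part, and the mean was 92.8% of wild-type. The log2 fold change was -0.11 with a 95% interval of -0.23 to 0.01 (edgeR adjusted p = 0.20). A decrease to the size found for Drd2 or Gpr6 lay outside that interval. The interval holds for the reads counted to Sp9, which may include Cir1 reads from the shared stretch. Their share was not tested. The exact two-sided permutation p was 0.055 for Sp9, against 0.000155 for each of the 4 other genes, the smallest that 12870 arrangements of 8 against 8 mice allow.

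**Figure D1:**
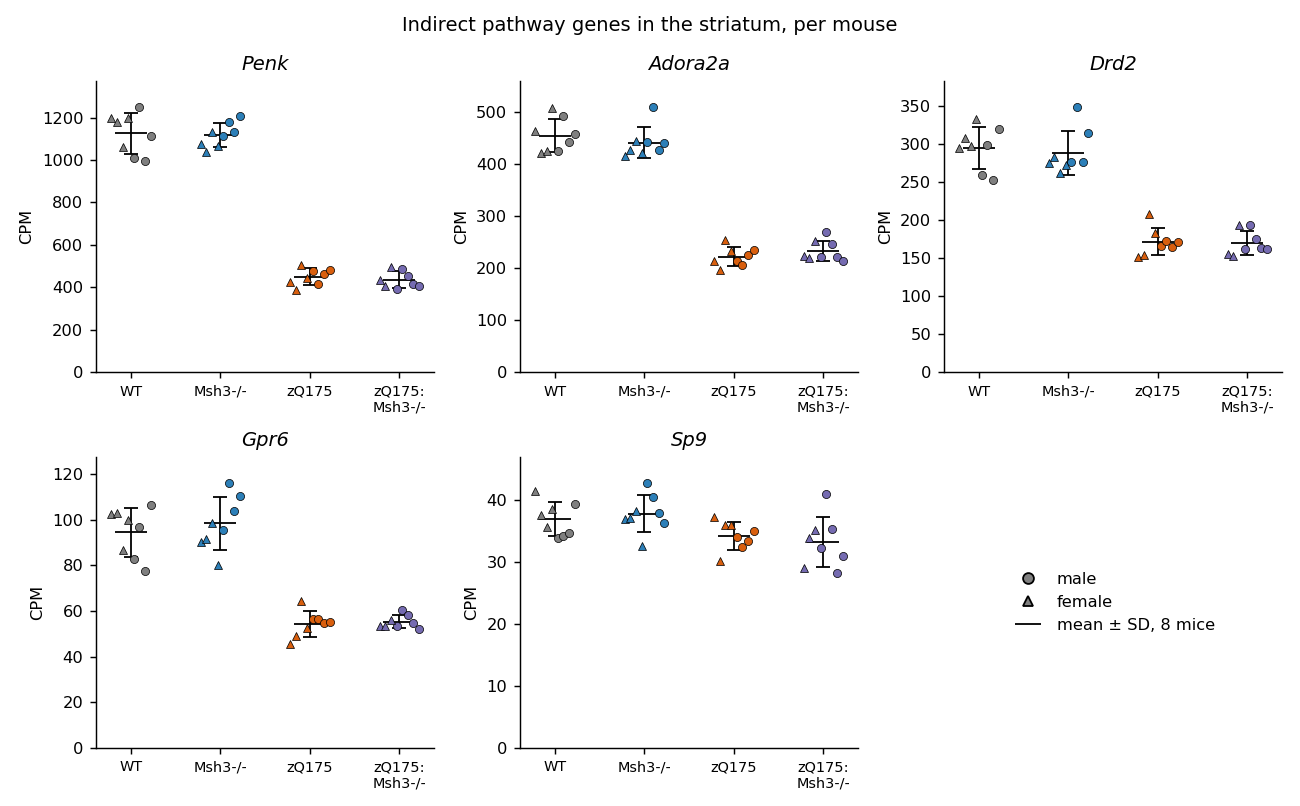
Level of each gene in CPM (vertical axis from 0) in each mouse, by genotype (WT, wild-type), with the mean and SD of 8 mice in black. The zQ175 and zQ175:Msh3-/- mice lie below all mice without the zQ175 allele for Penk, Adora2a, Drd2 and Gpr6, and overlap them for Sp9.

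The decreases were unequal. The difference between members was tested per mouse on the log2 scale for all 10 pairs in both comparisons of the zQ175 allele, by exact two-sided permutation, with adjustment over the 20 tests. In zQ175 against wild-type, the log2 change of Penk was larger in size than that of Adora2a by 0.29 (adjusted p = 0.00022), and than that of Drd2 by 0.54 and Gpr6 by 0.53. Adora2a in turn changed more than Drd2, by 0.25 (exact permutation, adjusted p = 0.00062), and more than Gpr6, by 0.24 (exact permutation, adjusted p = 0.0057). Drd2 and Gpr6 differed by 0.01 in their change (exact permutation, adjusted p = 0.82). Sp9 changed less than each of the other 4, by 0.68 to 1.22 (exact permutation, adjusted p = 0.00022 for each). These tests were chosen after the values had been seen.

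In mice without Msh3, the same 4 genes were called lower with the zQ175 allele, where 5.96% of all genes tested were called lower and 4.68% higher. The median log2 fold change of the members was -0.83, beside 0.01 over all genes. Every zQ175:Msh3-/- mouse was below every Msh3-/- mouse for these 4 genes, which held for 3.64% of all genes.

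Penk ranged from 1039 to 1207 CPM with a median of 1123 in Msh3-/- mice, and from 391 to 498 CPM with a median of 425 in zQ175:Msh3-/- mice. The gap was again wide, and the log2 fold change was -1.36 ± 0.05 (SE, n = 8, edgeR adjusted p = 1.9e-19), the smallest p of all genes in this comparison. Adora2a ranged from 416 to 509 CPM with a median of 435 in Msh3-/- mice, and from 214 to 269 CPM with a median of 222 in zQ175:Msh3-/- mice. Its log2 fold change was -0.92 ± 0.05 (SE, n = 8, edgeR adjusted p = 6.8e-16), and the mean was 52.9% of Msh3-/-. One Msh3-/- mouse, at 509 CPM, stood above the other 7, which lay between 416 and 444 CPM.

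Drd2 ranged from 261 to 348 CPM with a median of 276 in Msh3-/- mice, and from 153 to 194 CPM with a median of 163 in zQ175:Msh3-/- mice. The groups were apart, with a log2 fold change of -0.76 ± 0.07 (SE, n = 8, edgeR adjusted p = 8.5e-11). The summed level of the 5 cholinergic markers was 100.4 to 137 CPM in Msh3-/- and 80.3 to 103 CPM in zQ175:Msh3-/- mice. Of these markers 4 were called lower in this comparison, Slc18a3 at -0.42, Lhx8 at -0.38, Slc5a7 at -0.36 and Chat at -0.32, and their part in the Drd2 result was again not tested. Gpr6 ranged from 80.2 to 116 CPM with a median of 97.3 in Msh3-/- mice, and from 52.2 to 60.4 CPM with a median of 54.1 in zQ175:Msh3-/- mice. It was the least variable of the 5 genes among zQ175:Msh3-/- mice, with an SD of 5.15% of the mean, and its log2 fold change was -0.83 ± 0.07 (SE, n = 8, edgeR adjusted p = 5.6e-11).

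Sp9 ranged from 32.5 to 42.8 CPM with a median of 37.6 in Msh3-/- mice, and from 28.3 to 41.1 CPM with a median of 33.1 in zQ175:Msh3-/- mice. The groups overlapped widely. The log2 fold change of -0.18 ± 0.06 (SE, n = 8) had an adjusted p of 0.024 by edgeR but was under the 1.2-fold limit, so it was not called, and with the cortical marker level in the model the adjusted p was 0.065. The pairwise order of the changes was as in mice with Msh3: Penk exceeded Adora2a by 0.44 (exact permutation, adjusted p = 0.00022), and Adora2a exceeded Drd2 by 0.16 (exact permutation, adjusted p = 0.00078). The difference of 0.10 between Adora2a and Gpr6 did not pass the test (exact permutation, adjusted p = 0.064). Drd2 and Gpr6 differed by 0.06 (exact permutation, adjusted p = 0.27).

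Loss of Msh3 left no detected difference in any of the 5 genes. Between zQ175:Msh3-/- and zQ175 mice, 0 of the 5 members were called, where 0.00602% of all genes tested, 1 gene, was called in either direction. That gene was Msh3. The log2 fold changes were 0.07 for Adora2a, 0.02 for Gpr6, -0.01 for Drd2, -0.04 for Sp9 and -0.04 for Penk, each with an edgeR adjusted p of 0.999. The 95% intervals lay between -0.16 and 0.18 for all 5 genes. At an unadjusted p under 0.05, 614 of all genes and 0 of the members passed, and DESeq2 called 0 members.

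Between Msh3-/- and wild-type mice, 0 of the 5 members were called as well, where again 0.00602% of all genes tested, Msh3 alone, was called. The log2 fold changes ranged from -0.04 for Adora2a to 0.06 for Gpr6, and the 95% intervals from -0.17 to 0.20. At an unadjusted p under 0.05 by edgeR, 846 of all genes and 0 of the members passed, and DESeq2 called 0 members. The interaction, which asks whether the zQ175 effect differed with and without Msh3, was called for 0 of the 5 members and for 0.0% of all genes at an adjusted p under 0.05. At an unadjusted p under 0.05, 737 of all genes and 0 of the members passed, and DESeq2 called 0 members. Its estimate was largest for Adora2a, at 0.11 log2 with a 95% interval of -0.03 to 0.26. For Penk it was -0.04, with an interval of -0.19 to 0.12, which is narrow beside the zQ175 effect of -1.32. Differences of up to 0.26 on the log2 scale lie within these intervals.

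**Figure D2:**
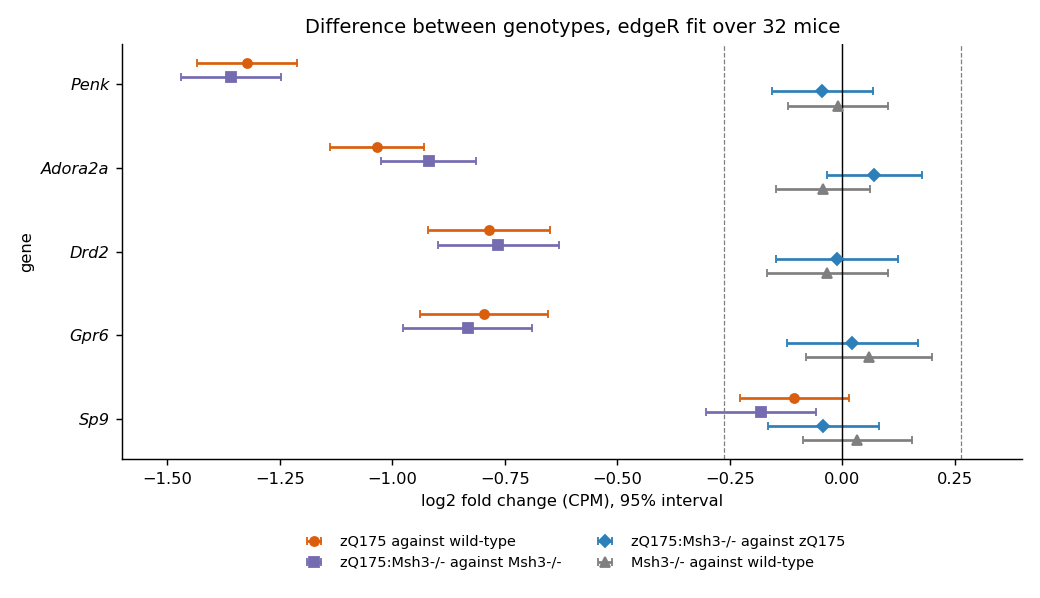
Log2 fold change of each gene in CPM (horizontal axis) with its 95% interval in 4 comparisons between genotypes, with dashed lines at the 1.2-fold limit. Both comparisons of the zQ175 allele lie between -1.36 and -0.76 for Penk, Adora2a, Drd2 and Gpr6, and both comparisons of Msh3 loss lie within the limit for all 5 genes.

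No difference in the zQ175 effect between the sexes was detected. Over both Msh3 genotypes, the log2 fold change with the zQ175 allele was -1.34 in males and -1.34 in females for Penk, -1.005 and -0.95 for Adora2a, -0.79 and -0.76 for Drd2, -0.82 and -0.81 for Gpr6, and -0.15 and -0.14 for Sp9. The difference between the sexes was called for 0 of the 5 members and 0.0% of all genes at an adjusted p under 0.05 by edgeR, with 847 of all genes and 0 of the members at an unadjusted p under 0.05. Its 95% intervals reached from -0.21 to 0.17 over the 5 genes.

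Genes of the indirect and direct pathways were set against each other within each mouse, as the difference in log2 CPM between the receptors, Drd2 minus Drd1, and between the peptide precursors, Penk minus Tac1. Drd1 encodes the D1 dopamine receptor and Tac1 the precursor of substance P, a peptide of direct pathway neurons. The 2 ratios behaved differently. Drd2 minus Drd1 ranged from 0.14 to 0.36 with a median of 0.26 in wild-type mice, and from 0.17 to 0.46 with a median of 0.24 in zQ175 mice. The groups overlapped over most of their range, and the means differed by 0.02 (exact permutation, adjusted p = 0.81 over 8 tests). In mice without Msh3 the difference was -0.04 (exact permutation, adjusted p = 0.66).

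Penk minus Tac1 ranged from 2.68 to 2.93 with a median of 2.78 in wild-type mice, and from 1.30 to 1.48 with a median of 1.41 in zQ175 mice. No mice overlapped, and the means differed by -1.38 on the log2 scale (exact two-sided permutation, adjusted p = 0.00062). In Msh3-/- mice the ratio ranged from 2.67 to 2.85, and in zQ175:Msh3-/- mice from 1.29 to 1.52. That difference was -1.35, again without overlap (exact permutation, adjusted p = 0.00062). No difference with Msh3 loss was detected in either ratio, with differences of -0.08 to -0.01 and adjusted p-values of 0.46 to 0.81 by exact permutation. Of the 4 genes, Drd1 had a log2 fold change of -0.81 (edgeR adjusted p = 2.8e-12) in zQ175 against wild-type, close to that of Drd2. Tac1 had 0.06 (edgeR adjusted p = 0.42), with a mean of 163 CPM in wild-type and 171 CPM in zQ175 mice. Pdyn, the dynorphin precursor and also a direct pathway gene, was in neither ratio. It had -0.32 in the same comparison (edgeR adjusted p = 0.0014), so Tac1 does not stand for all direct pathway peptide genes.

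**Figure D3:**
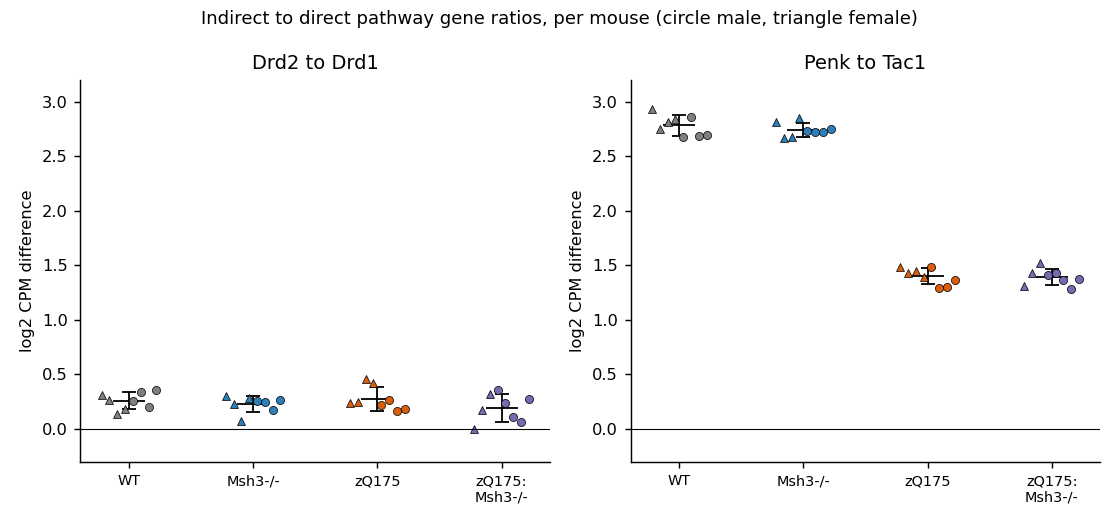
Log2 CPM of Drd2 minus Drd1 and of Penk minus Tac1 (vertical axes, same scale) in each mouse by genotype, with the mean and SD of 8 mice in black. Drd2 minus Drd1 overlaps between all genotypes, while Penk minus Tac1 lies between 2.67 and 2.93 in mice without the zQ175 allele and between 1.29 and 1.52 in mice with it.

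Other genes listed as markers of D2 spiny neurons were less uniform. Of 6, 3 were called lower in zQ175 against wild-type and 0 higher, with a median log2 fold change of -0.26. Upb1, an enzyme of pyrimidine breakdown, had -1.42 (edgeR adjusted p = 9.2e-10), at a low level of 3.57 CPM in wild-type and 1.35 CPM in zQ175 mice. Gprin3, a partner of G protein signalling, had -0.75 (edgeR adjusted p = 6.6e-10), and Plxdc1 had -0.32 (edgeR adjusted p = 0.0028). Ptprm, Grik3 and Ttc12 were not called, with values of 0.00, 0.01 and -0.19. In zQ175:Msh3-/- against Msh3-/-, 2 of the 6 were called lower, Upb1 at -1.12 and Gprin3 at -0.47, and the median was -0.12.

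Of 9 genes of direct pathway neurons, 4 were called lower in zQ175 against wild-type and 0 higher, with a median log2 fold change of -0.25. Besides Drd1, these were Chrm4, a muscarinic receptor, at -0.74 (edgeR adjusted p = 1.0e-10), Pdyn, the dynorphin precursor, at -0.32, and Sfxn1 at -0.27. The transcription factors Isl1, Ebf1 and Eya1 were not called, with values of 0.21, 0.05 and 0.20. Isl1 had an adjusted p of 0.041 by edgeR and failed only the fold limit. The same held for Slc35d3, at -0.25 (edgeR adjusted p = 0.0058). In zQ175:Msh3-/- against Msh3-/-, 3 of the 9 were called lower, and 1, Eya1, was called higher at 0.38 (edgeR adjusted p = 0.0022). Without 1 Msh3-/- mouse, female replicate 4, 5 were called lower in that comparison. All 10 genes shared by both spiny neuron classes were called lower in both comparisons, with medians of -0.70 and -0.64. Among them, Arpp21, a cyclic AMP-regulated phosphoprotein, had -1.01 in zQ175 against wild-type, and Pde10a, the striatal phosphodiesterase, had -1.18.

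The partners of the A2A and D2 receptors were mixed. Of 12 signalling genes, 5 were called lower and 0 higher in both comparisons, with medians of -0.22 and -0.15. Adcy5, the adenylyl cyclase on which both receptors act, had a log2 fold change of -0.85 in zQ175 against wild-type (edgeR adjusted p = 4.7e-15). Rgs9, which speeds the switching off of Gi proteins and is also in the list of shared genes, had -0.86 (edgeR adjusted p = 5.2e-12). Gsk3b had -0.40 (edgeR adjusted p = 9.0e-11). Gnal and Gng7, subunits of Golf, had -0.33 and -0.35. The other 7 were not called. Of these, 3 had an adjusted p under 0.05 by edgeR but were under the fold limit: Gnao1, the alpha subunit of Go, with -0.23 (adjusted p = 1.7e-06), Prkar2b, a regulatory subunit of protein kinase A, with -0.21 (adjusted p = 0.00030), and Gnai1 with 0.17 (adjusted p = 0.0014). Gnai2 had 0.10 and Prkaca, the catalytic subunit of protein kinase A, 0.04.

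Enkephalin handling was examined through 9 genes, of which 2 were called lower and 2 higher in zQ175 against wild-type, with a median of -0.09. Oprd1, the delta opioid receptor at which enkephalin acts, had -0.46 (edgeR adjusted p = 1.7e-06), and Oprk1, the kappa receptor, had -0.32 (edgeR adjusted p = 0.012). Pcsk1, a protease that cuts peptide precursors, was higher by 0.53 (edgeR adjusted p = 0.0018), at 16.3 CPM in wild-type and 23.5 CPM in zQ175 mice. Scg5, which encodes the chaperone of the related protease Pcsk2, was higher by 0.30 (edgeR adjusted p = 1.1e-07). Pcsk2 itself and Cpe, also in this list, went the other way, at -0.21 and -0.09. They had adjusted p-values of 0.0010 and 0.041 by edgeR but were under the fold limit, so neither was called. The mu receptor gene Oprm1 and the enkephalin-cleaving enzyme gene Mme were not called, with values of -0.03 and -0.15. In zQ175:Msh3-/- against Msh3-/-, Oprd1 and Oprk1 were called lower and Pcsk1 higher, and the median was -0.07. Of 6 genes that supply or remove adenosine or encode its A1 receptor, 0 were called in either direction in either comparison, with medians of -0.01 and 0.00 and edgeR adjusted p-values of 0.0081 to 0.98. The lowest belonged to Slc29a1, an adenosine transporter, at -0.17, under the fold limit. The largest estimates were those of Ada, adenosine deaminase, at 0.53 and 0.82 (edgeR adjusted p = 0.21 and 0.053), with group means of 0.312 to 0.562 CPM. At an unadjusted p under 0.05 by edgeR, 1 of the 6 passed in the first comparison and 2 in the second. Over all 16610 genes tested, 6063 and 5803 passed that limit. DESeq2 called 0 of the 6 in each.

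**Figure D4:**
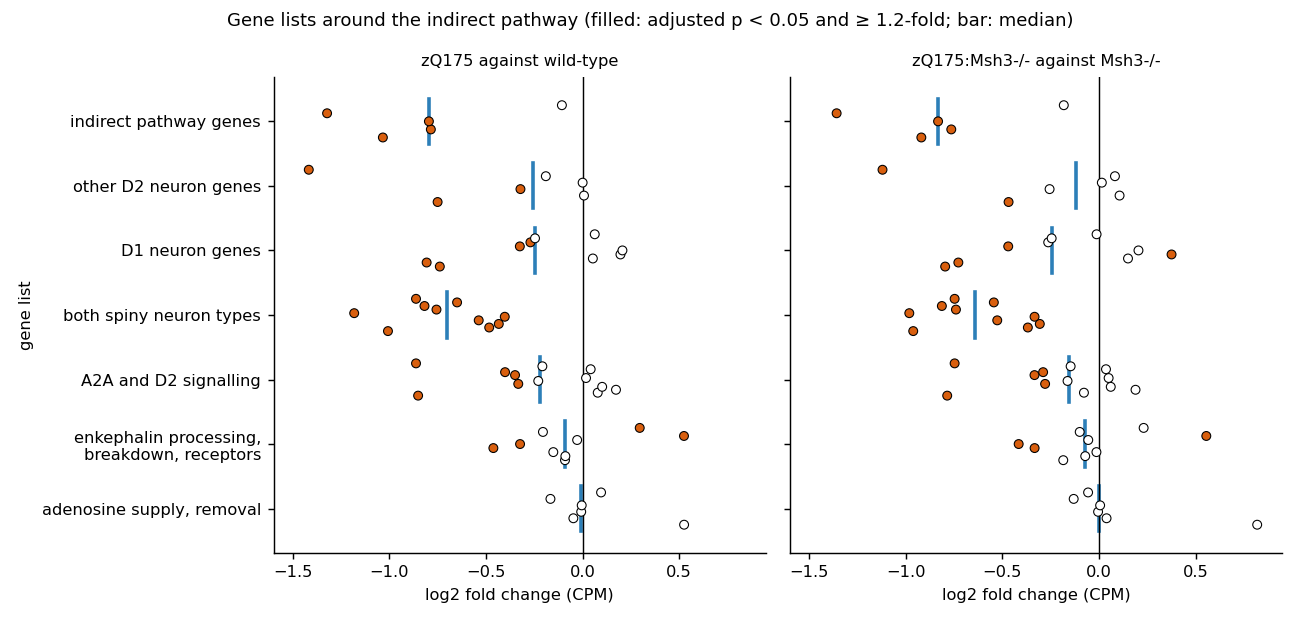
Log2 fold change in CPM (horizontal axis) of each tested gene in 7 lists (vertical axis) for zQ175 against wild-type and zQ175:Msh3-/- against Msh3-/-, with called genes filled and the list median as a bar. All 10 genes of both spiny neuron types lie between -1.18 and -0.31, while the 6 adenosine genes have medians of -0.01 and 0.00.

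Among mice of the same genotype, the 5 genes varied together. The level of each gene in each mouse was taken as its log2 CPM minus the mean of that genotype, so that differences between genotypes did not enter, and the 32 mice were pooled. Pearson's r ranged from 0.48 to 0.79 over the 10 pairs, and all 10 had an adjusted p under 0.05 when mice were permuted within genotype 100000 times, by Pearson's r and by Spearman's rho. Penk and Adora2a gave r = 0.79 and rho = 0.76 (permutation, adjusted p = 2.0e-05 and 7.5e-05), and Drd2 and Gpr6 gave r = 0.78 and rho = 0.80 (permutation, adjusted p = 2.0e-05 and 3.3e-05). Without the 2 mice farthest from the median of the first gene, r was 0.75 and 0.71. Sp9, which was not called between genotypes, also varied with the others, least with Gpr6, at r = 0.48 and rho = 0.51 (permutation, adjusted p = 0.0032 and 0.0047). Without the 2 farthest mice that r was 0.39. Both values of a pair come from the same library and share its depth. Such correlation was not particular to these genes. The median r was 0.67 over their 10 pairs, 0.77 over the 45 pairs of the 10 genes of both spiny neuron types, where r ranged from 0.58 to 0.89, and 0.37 over the 36 pairs of the 9 direct pathway genes, where it ranged from -0.03 to 0.74. Over all pairs of 11789 genes with a mean of at least 5 CPM the median was 0.0013, and 2.58% of pairs reached the lowest value found between members.

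The summed cortical markers moved the other way. Within genotype, r between their log2 level and the member was -0.61 for Penk (rho = -0.68, permutation, adjusted p = 0.0013 and 0.00015), -0.60 for Adora2a (rho = -0.56, permutation, adjusted p = 0.0013 and 0.0041) and -0.44 for Drd2 (rho = -0.49, permutation, adjusted p = 0.029 and 0.011). It was -0.40 for Gpr6 (rho = -0.45, permutation, adjusted p = 0.044 and 0.023) and -0.37 for Sp9 (rho = -0.36, permutation, adjusted p = 0.044 and 0.052). Without the 2 mice farthest from the median of the cortical level, r ranged from -0.60 to -0.35. After regression on that level, r between members was 0.39 to 0.74. With the cortical level as a term in the model, 4 of the 5 members were called lower in both comparisons, and Penk had log2 fold changes of -1.28 and -1.31. These relations were examined after the data had been seen.

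**Figure D5:**
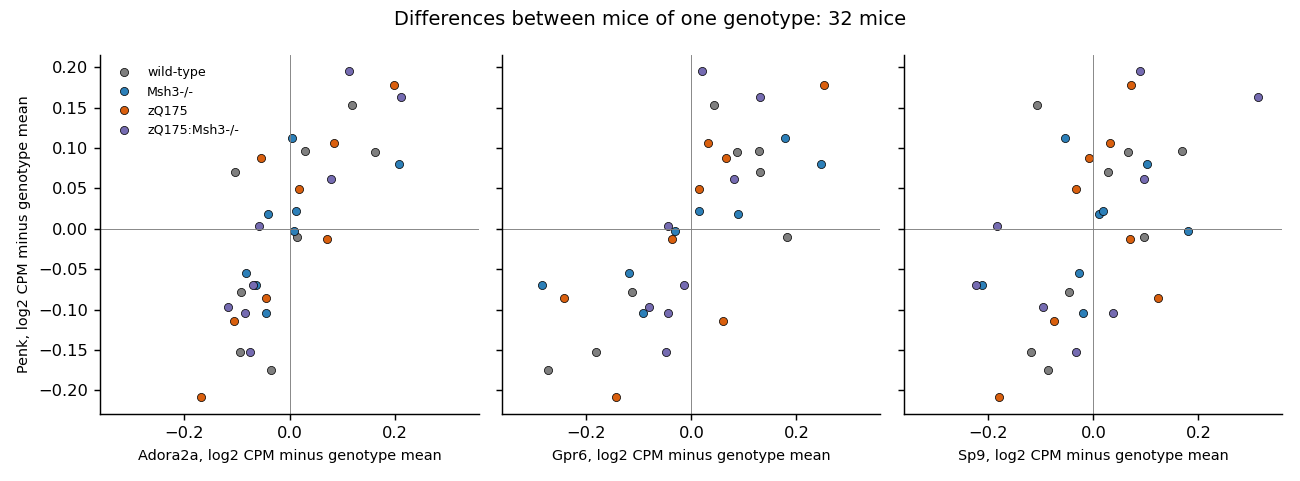
Penk (vertical axis) against Adora2a, Gpr6 and Sp9 (horizontal axes) in 32 mice, each as log2 CPM minus the mean of its genotype. The points rise together in all 3 panels, most tightly for Adora2a at r = 0.79, and mice of the 4 genotypes are intermingled.

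The genes whose pattern over the 32 mice was most like the mean of the 5 members were found by the root mean square difference in log2 CPM relative to the wild-type mean, among 11774 other genes with a mean of at least 5 CPM. Ppp1r1b was nearest, at 0.05, followed by Adcy5 at 0.05, Pde1b at 0.06, Syndig1l at 0.07 and Rgs9 at 0.09. By the same measure, Adcy5 was nearest to Drd2, Syndig1l to Gpr6 and Arpp21 to Adora2a. Penk had no neighbour as close: Scn4b, a sodium channel subunit, was nearest to it at 0.17. The nearest to Sp9 was Mrps21, a mitochondrial ribosomal protein gene, at 0.09. Among the members themselves, Drd2 and Gpr6 were the most alike, at 0.10, and Penk and Sp9 the least, at 0.87.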

How the data were processed

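Striatal RNA of 32 mice was sequenced. The authors deposited unnormalized counts, whole numbers for each gene, and a table named FPKM whose columns each sum to 1000000, so it was treated as TPM. Per the labels the build is GRCm38.p6, and the aligner, counter and strand setting are not given in the sources used here. Samples were grouped by genotype label. Counts were fitted by edgeR 4.0.16 (R 4.3.3; TMM, low-count filter, robust quasi-likelihood, 1 model of 4 genotypes) over 16610 genes, and log2 CPM used a prior count of 2. Single values were compared by exact permutation. Alternatives were DESeq2 1.42.0, RLE, other filters and fold limits, glmTreat, sex or replicate block in the model, only the 2 groups compared, each sex alone, each mouse left out, and limma 3.58.1 on log2(TPM + 0.1) or log2(TPM + 1), a scale that understates changes of low genes. Simulated data had 200 genes changed 2-fold in both zQ175 groups, drawn only from genes above a floor of expected reads. Of these, 96.5% were recovered in zQ175 against wild-type, with 4 false calls. Recovery of smaller changes, or of changes in genes below that floor, was not tested. Summaries and figures were made in Python 3.11.15 (pandas 2.3.3, numpy 2.4.6, matplotlib 3.10.9, scipy 1.17.1).

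The members and gene lists were chosen with earlier results of these data known. The rule for named genes was all members, up to 4 called genes per list by adjusted p, and the nearest genes by likeness. Other genes named were chosen after their values were seen. A count of 3 reads is a share of 2.43e-05% in the shallowest mouse. The mice are separate animals, so the tests of genotype judge differences between groups against the spread between mice. Litter was not modelled.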

Additional observations from a re-analysis of the deposited data

Results flagged for a closer look

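Of 32 sets of 8 mice examined by Dixon's ratio (the 5 genes, the 2 pathway ratios and the total count in each genotype), 1 had a mouse far from the others, where chance alone gives about 1 in 20. That set was Adora2a in Msh3-/- mice: the highest mouse had 509 CPM and the other 7 had between 416 and 444 CPM, and the gap was 0.671 of the range on the log2 scale, above the 95% critical value for 8 samples. Leaving out each Msh3-/- mouse in turn kept the call for Adora2a in zQ175:Msh3-/- against Msh3-/-.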

How the results depend on the processing

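The 4 members called lower in zQ175 against wild-type, and the 4 in zQ175:Msh3-/- against Msh3-/-, were called in each of the 47 alternatives run, the cortical marker term added after seeing the data among them, and 0 members were called with Msh3 loss in any. Over all alternatives the log2 fold change of Penk stayed between -1.39 and -1.25 in the first comparison and between -1.43 and -1.27 in the second. Estimates of Msh3 loss near 0 changed sign. For zQ175:Msh3-/- against zQ175, Drd2 was 0.0062 with the replicate block, 0.0061 with the cortical marker level, 0.024 in males alone and 0.0047 in the 3 limma fits on TPM, and Penk was 0.0157 in females alone. With single mice left out, Drd2 ranged from -0.0427 to 0.0315 and Gpr6 from -0.0102 to 0.0597. For Msh3-/- against wild-type, males alone gave 0.1073 for Drd2, 0.0867 for Penk and 0.0024 for Adora2a, females alone gave -0.1207 for Gpr6 and -0.082 for Sp9, and Penk was 0.0123 with the cortical marker level and 0.0049 in the 3 limma fits. With single mice left out, Penk ranged from -0.0333 to 0.0133. Replicate numbers did not pair the mice: the mean correlation of same-numbered mice was 0.054 over 45 pairs, against 0.057 for other pairs, and 15.6% of mice correlated best with their own number. With the replicate block the members called were 4, 4, 0 and 0, and the interaction 0. Over all genes, 1925 and 1768 were called in the 2 comparisons of the zQ175 allele. A 1.5-fold limit gave 538 and 503, glmTreat 641 and 541, males alone 1180 in the first and females alone 1067 in the second, and males alone 3 against 1 in Msh3-/- against wild-type. limma on log2(TPM + 0.1) put 40.1% and 31.4% of its calls lower, against 59.4% and 56.0% by edgeR, and moved the median of all genes to 0.07 and 0.09. With a 1.5-fold limit, 6 and 5 of the 10 genes of both spiny neuron types, 2 of the direct pathway genes in the first comparison and 1 of the other D2 genes in the second were called lower. glmTreat also called 2 direct pathway genes lower in the first comparison, and males alone called 5 in the second. Both pathway ratios kept their direction and side of the threshold on log2(TPM + 0.1) in the 4 comparisons. The 95% intervals for the interaction reach 0.26 on the log2 scale, so differences of that size lie within them at this number of mice and depth.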
